A study of Rattus norvegicus with 6 samples.

Results

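Cathepsins, cystatins and serpins are the lysosomal and secreted proteases of the testis and the inhibitors that hold proteases in check. Genes were chosen by symbol alone: cathepsins with 1 letter after Cts, the cystatins, and the serpins other than the collagen chaperone gene Serpinh1, to which Testin, a secreted relative of cathepsin L, was added by name. With 1 probe set per gene, 65 of the 14506 genes named on the array met the rule, namely 18 cathepsins (Testin counted among them), 12 cystatins and 35 serpins. No member of the families was removed by a filter on level.

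Most cathepsins are cysteine proteases that digest proteins in lysosomes, although Ctsd and Ctse encode aspartic proteases and Ctsa and Ctsg encode serine enzymes. Cystatins block cysteine cathepsins by sitting in their active site, outside the cell for the secreted kind and in the cytosol for the stefins Csta and Cstb. Serpins are suicide inhibitors, mostly of serine proteases, that trap a protease once it cuts their exposed loop. In the seminiferous epithelium Sertoli cells secrete cathepsin L and plasminogen activators, engulf residual bodies and dying germ cells, and set inhibitors against these proteases. Testin has lost the catalytic cysteine of its relatives and is known as a protein that Sertoli cells secrete and that gathers at their junctions with germ cells.

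The cells are labelled as Sertoli cells and were taken from rat testes (Rattus norvegicus) at either 9 or 21 days of age, with no strain, genotype or drug treatment given. All were primary cultures in DMEM/F12 with 10% fetal bovine serum, given new medium after a further 24 hours to purify them again, so even the younger group had been kept in culture. Each age had 3 arrays, numbered 1 to 3 in the titles, and nothing says whether they came from separate animals, so the p-values reflect nothing beyond how far these samples lie apart, a spread that may be technical. The values are log2 signals, on which a difference of 1 is a 2-fold change, and every array had a median from 3.78 to 3.87.

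The markers of several testis cell types were present in the cultures. Of 11 measured Sertoli cell markers 7 lay above the array median on every array, among them Wt1, Gata4 and Clu, while Amh, Cldn11 and Fshr lay below it on every array. All 9 markers of peritubular and smooth muscle cells and all 8 of fibroblasts lay above it on every array. Below it on every array lay 10 of 14 macrophage markers and 7 of 9 germ cell markers. Cd14 among the former and Uchl1 among the latter lay above it on every array. Of 6 Leydig cell markers 4 lay below it on every array and 2, Star and Insl3, above it. Of 7 endothelial markers 4 lay below it on every array and 2, Cdh5 and Egfl7, above it. The arrays numbered 3 stood apart: the mean of the smooth muscle markers was 10.02 at 9 days and 9.87 at 21 days, which exceeded the mean of the other 2 arrays by 1.32 and 1.59. In such mixed cultures fewer cells of a type and less RNA per cell cannot be told apart.

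Mean signals of a few members lay well apart at the 2 ages, in both directions, with a wide spread between arrays, and those of most members lay close together. Testin and the serpin gene Serpinb2 were higher at 21 days by 2-fold or more. Ctsh, Ctsc and Ctsk among the cathepsins, the cystatin gene Cst3 and the serpin gene Serpina3n were higher by 0.34 to 0.55 (log2). Serpine2 and Serpinb1a were lower by -0.65 and -0.56. No member passed an adjusted p under 0.05 in limma, where 0 of all genes did (0% called), and the lowest adjusted p among the members was 1.0. With the replicate number as a block 0 passed as well (0% of all genes), and the lowest adjusted p among the members was 0.390.

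An unadjusted p under 0.05 was reached by 2 members, Ctsh and Testin, or 3.08%, beside 2.97% of all genes in limma. The fit blocked on replicate number gave 6, or 9.23%, beside 7.73% of all genes, with Serpinb1a, Serpinb2, Serpine2 and Serpinb6b added. For 4 members the older and younger arrays did not overlap, beside 5.72% of all genes: Testin, Ctsh and Serpini2 were higher at 21 days (2.74% of all genes) and Serpinb1a was lower (2.98%). The sign was the same in all 3 pairs of arrays with one number for 14 members, or 21.5%, beside 25.2% of all genes, with 9 higher (10.7% of all genes) and 5 lower (14.4%). These shares lay near those of the array as a whole. At least 2-fold differences, at any p, were seen for 2 members beside 0.427% of all genes, and differences of at least 0.3 for 9 members, or 13.8%, beside 6.76%. Testin had been picked by name with its difference known, so these 2 counts are no test.

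The median difference was small in each family. At 21 days 13 cathepsins were higher and 5 lower, and their median log2 difference was 0.080, beside -0.0093 over all genes. Among the cystatins 7 were higher and 5 lower (median 0.014), and among the serpins 19 and 16 (median 0.0063). In all, 39 members were higher and 26 lower, or 31 higher when each array was centred on its median, and that centring also turned the sign of the cystatin (-0.011) and serpin (-0.019) medians; quantile normalization turned the serpin median as well (-0.013). Both also turned with array weights (-0.0020 and -0.0092), without 21-day-old replicate 2 (-0.023 and -0.0035), without 21-day-old replicate 3 (-0.00081 and -0.0066) and without both arrays numbered 3 (-0.021 and -0.013), and the cystatin median turned without 9-day-old replicate 3 (-0.0091). The whole array had 46.5% of its genes higher. With only the genes whose mean lay in the upper part of the array kept, 18 members were left, with medians of 0.20 for cathepsins, 0.31 for cystatins and -0.13 for serpins.

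**Figure D1:**
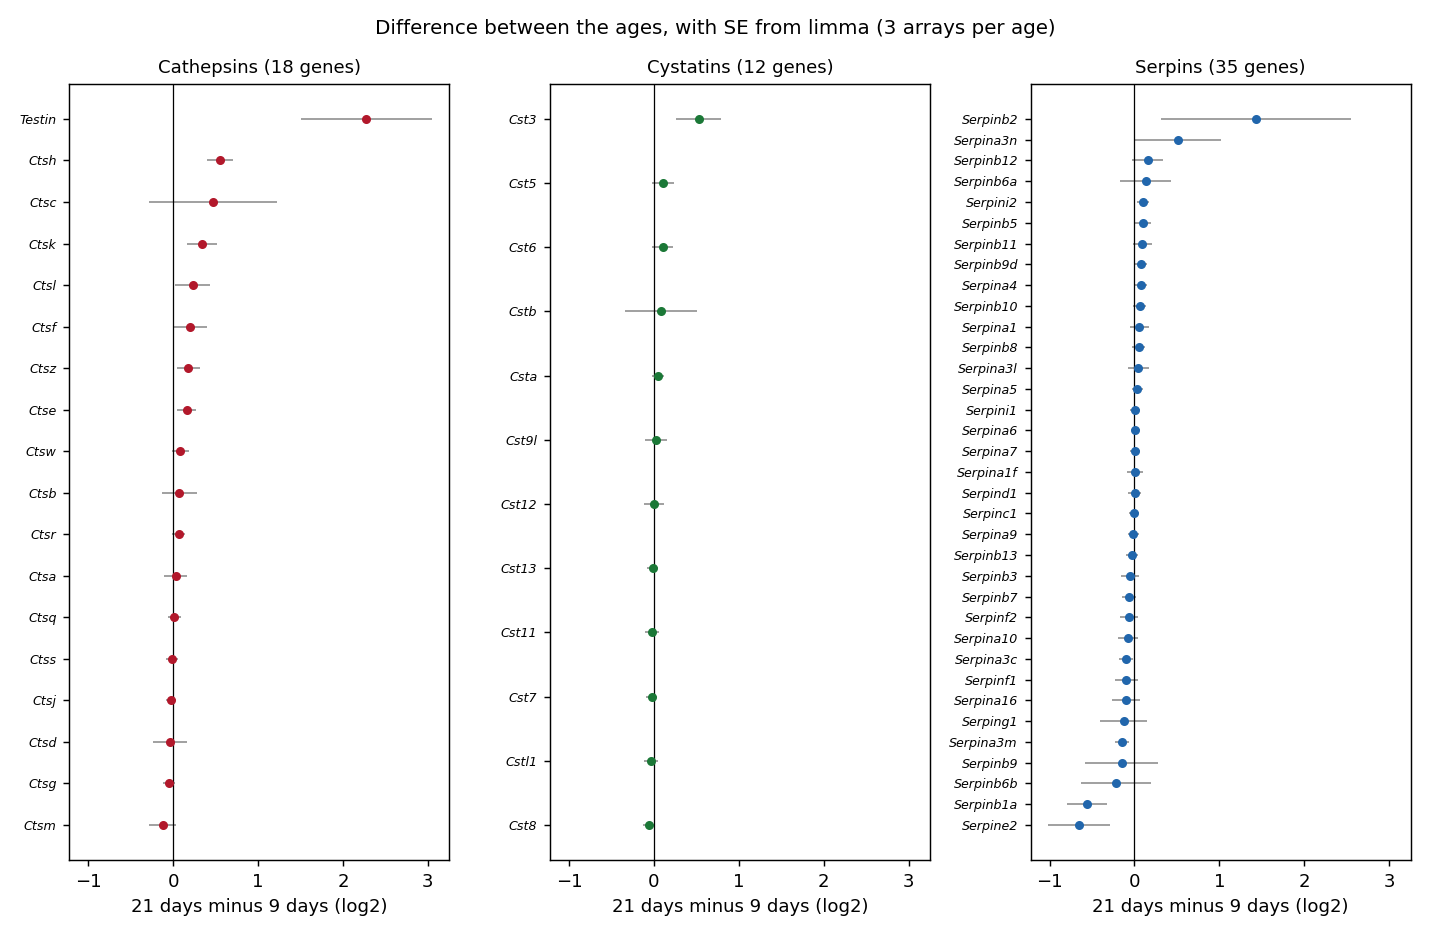
Differences between the ages (21 days minus 9 days, log2; points) with the SE from limma (bars) for 18 cathepsins, 12 cystatins and 35 serpins, 3 arrays per age. Testin (2.28) and Serpinb2 (1.43) lie farthest to the right with wide bars, Serpine2 (-0.65) and Serpinb1a (-0.56) farthest to the left, and most other genes lie close to 0.

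The members differed widely in signal level. Only 16 members lay above the array median on every array, 8 cathepsins, 2 cystatins and 6 serpins, or 24.6% beside 56.3% of all genes. Another 43 lay below it on every array, and their differences ran from -0.15 to 0.16. Detection calls were not part of the values, so for these 43 the small differences leave unknown whether the genes were expressed at all. The remaining 6 crossed the median: Ctsc, Testin, Csta, Serpinb6b, Serpina3n and Serpinb2. Of the 8 cathepsins above the median 7 were higher at 21 days, and of the 6 serpins above it 5 were lower. Many of these signs were unsteady. Leaving out 1 array could turn that of Ctsa, Ctsb, Ctsd, Ctsl, Serpinb9, Serping1, Serpinf1 and Serpinb6a. It did not turn that of Ctsf, Ctsh, Ctsk, Ctsz, Serpine2 or Serpinb1a. Among all genes above the median on every array 38.6% were higher, with a median difference of -0.036.

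**Figure D2:**
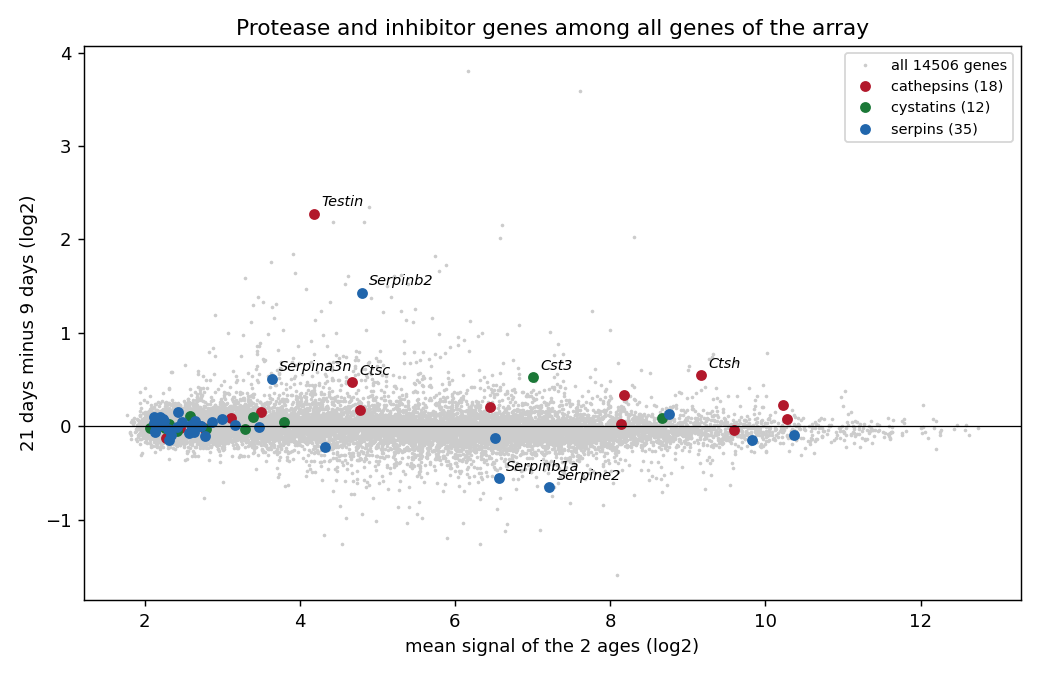
Mean log2 signal of the 2 ages (horizontal) against the difference of 21 minus 9 days (log2, vertical) for all 14506 genes (grey) and for cathepsins, cystatins and serpins (coloured). Most serpins and cystatins crowd at the low end near a difference of 0, while Testin and Serpinb2 stand among the larger differences of the array.

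Testin had the largest difference of the 65 genes. Its log2 signals were 3.06, 2.97 and 3.10 at 9 days and 4.25, 4.53 and 7.17 at 21 days. All arrays of the younger cultures lay below the array medians, all of the older ones above them, and replicate 3 at 21 days stood far above the other 2. Mean signals of 3.04 ± 0.065 and 5.32 ± 1.61 (SD, n = 3 each) gave a fold of 4.84 and a log2 difference of 2.28 ± 0.77 (SE). Without 21-day-old replicate 3 the difference was 1.35. In that array the Sertoli cell markers also had their highest mean, 6.28 beside 5.21 and 5.58 in replicates 1 and 2 and 4.84 to 5.10 at 9 days. At 21 days 10 of the 11 markers were higher, but by unlike amounts. Tf differed most, by 3.59, then Shbg, Inha and Clu by 1.16, 1.03 and 0.69. The other higher markers differed by only 0.0095 (Rhox5) to 0.37 (Cldn11), and Gata4 was lower (-0.19). The part of these shifts in the signal of Testin was not tested.

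Ctsh, which encodes an aminopeptidase of the lysosome, was the cathepsin with the steadiest difference. It was at 9.01, 8.87 and 8.81 at 9 days, then 9.47, 9.71 and 9.17 at 21 days. The ages did not overlap, and the difference was 0.46, 0.84 and 0.36 in the 3 pairs of arrays with one number. The fold was 1.47, with a log2 difference of 0.55 ± 0.15 (SE), and it stayed between 0.42 and 0.69 when any 1 array was left out. Of the 25 members given here with the values of each array, it alone moved by less than 1.5 times in all 6 of these repeats.

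Ctsc, the dipeptidyl peptidase that activates serine proteases of immune cells, varied more between numbers than between ages. Its signals were 4.26, 5.45 and 3.60 at 9 days and 5.16, 6.03 and 3.53 at 21 days. Replicate 2 was highest and replicate 3 lowest at both ages, and the ages overlapped. The log2 difference was 0.47 ± 0.75 (SE), or -0.09 without 21-day-old replicate 2 and 1.16 without 21-day-old replicate 3. In limma with the block the SE was 0.19, with an unadjusted p of 0.0619 and an adjusted p of 0.667.

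Ctsk, the collagen-degrading cathepsin best known from osteoclasts, was at 8.26, 7.94 and 7.82 at 9 days, then 8.21, 8.67 and 8.16 at 21 days. The ages overlapped, since replicate 1 at 9 days exceeded 2 of the older arrays. The difference was 0.34 ± 0.18 (log2, SE), or 0.18 without 21-day-old replicate 2. That array had the highest mean of the fibroblast markers (9.21 against 8.38 to 8.77 in the other arrays), but they did not move together. Dpt stood out there (7.92 against 3.91 to 5.17), and Lum and Dcn were highest there too. Col1a1 (11.28) and Col1a2 (10.95) were at their lowest there, and the others lay between. The part of these markers was not tested.

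Ctsl, the cathepsin that Sertoli cells secrete in stages of the spermatogenic cycle, was at 10.37, 10.32 and 9.63 at 9 days and at 10.38, 10.32 and 10.32 at 21 days. A single low array, replicate 3 at 9 days, parted the ages: the log2 difference was 0.23 ± 0.21 (SE) with it and -0.0072 without it. Its relative Testin differed in 3 of 3 pairs by 1.19 or more. Ctsl differed by 0.0052 in the pair numbered 1 and by 0.69 in the pair numbered 3. In the pair numbered 2 the deposited values of Ctsl were exactly equal, and 21-day-old replicate 3 carried that same value. Ctsf, another lysosomal cysteine protease, was at 6.32, 6.52 and 6.20 at 9 days and 6.43, 6.94 and 6.28 at 21 days. It was higher in each pair, with a difference of 0.20 ± 0.19 (log2, SE) that was 0.0094 without 21-day-old replicate 2.

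The main lysosomal cathepsins differed little. Ctsb, which encodes a broad cysteine protease, was at 10.06, 10.18 and 10.47 at 9 days and 10.01, 10.23 and 10.70 at 21 days. Ctsd, which encodes the chief aspartic protease of lysosomes, was at 9.65, 9.82 and 9.37 at 9 days and 9.67, 9.85 and 9.22 at 21 days. At both ages replicate 3 was the highest array for Ctsb and the lowest for Ctsd. The log2 differences were 0.073 ± 0.20 and -0.037 ± 0.20 (SE), and both signs turned without both arrays numbered 3 (-0.0021 and 0.022).

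Ctss, the cathepsin of antigen-presenting cells, was at 2.77 on each 9-day-old array and at 2.67, 2.86 and 2.74 at 21 days. It lay below the array medians throughout. The macrophage markers, whose mean log2 level was 3.31 to 3.40 at 9 days and 3.33 to 3.38 at 21 days, differed as little. The other cathepsins had differences from -0.12 (Ctsm) to 0.18 (Ctsz). The placental cathepsin genes Ctsj, Ctsm, Ctsq and Ctsr, the granule protease gene Ctsg, and Ctsw and Ctse lay below the array medians on all arrays. Ctsz and Ctsa lay above them.

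**Figure D3:**
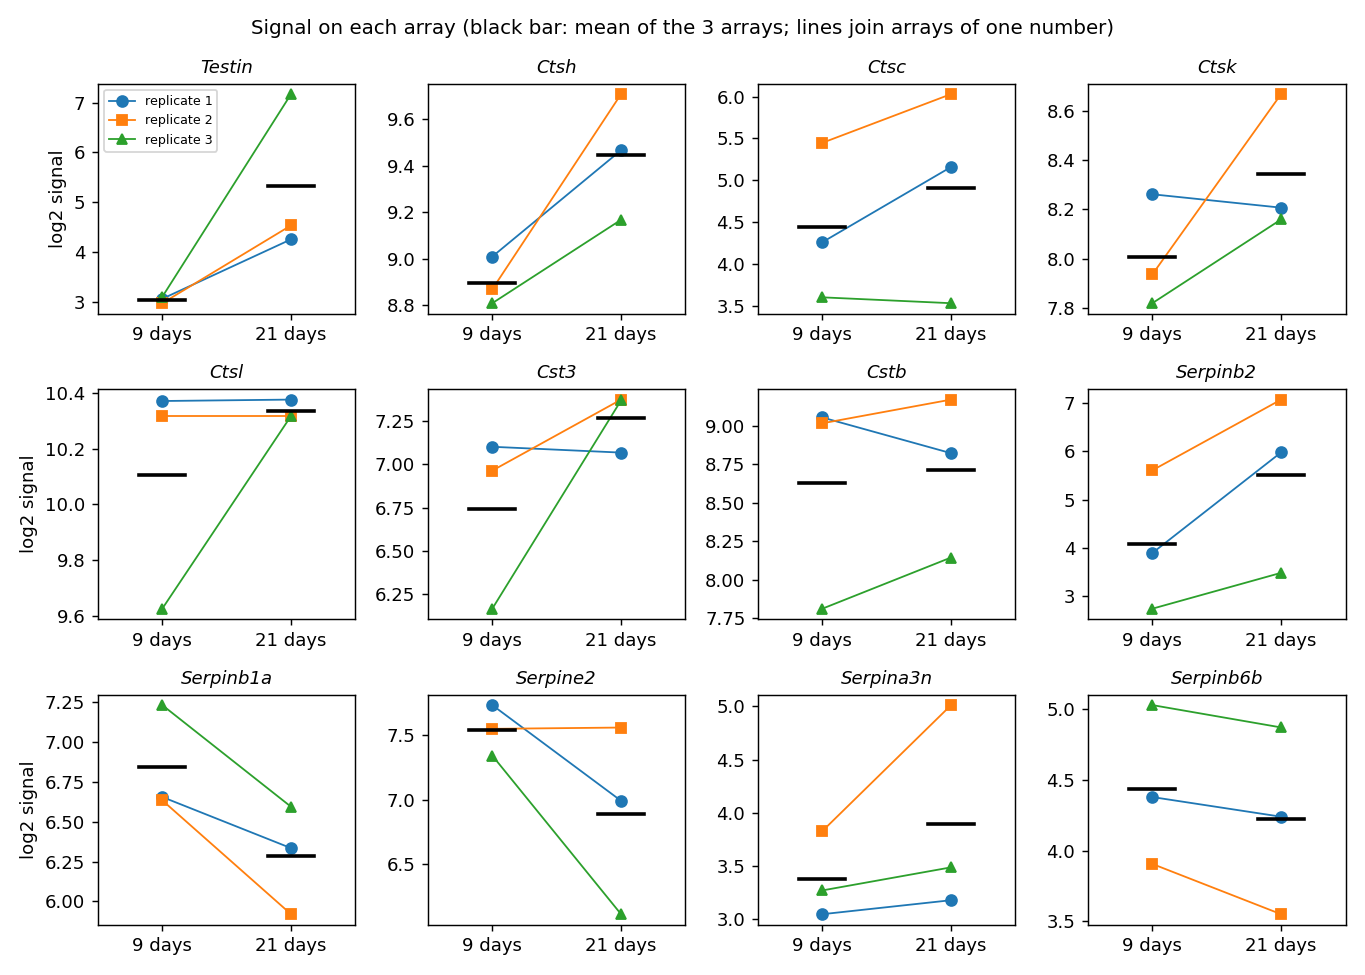
Log2 signal on each array at 9 and 21 days for 12 cathepsin, cystatin and serpin genes, with a panel and a vertical scale for each gene. Symbols and lines mark arrays of one replicate number and black bars the means of 3 arrays. The ages do not overlap in Testin, Ctsh and Serpinb1a, while in Serpinb2 and Ctsc the numbers lie farther apart than the ages.

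Among the cystatins Cst3 had the largest difference. It encodes cystatin C, the main secreted inhibitor of cysteine cathepsins and an abundant product of Sertoli cells. Its signals were 7.10, 6.96 and 6.16 at 9 days, then 7.07, 7.38 and 7.37 at 21 days. The ages overlapped, and replicate 3 at 9 days was low, as it was for Ctsl. The difference was 0.53 ± 0.26 (log2, SE), 1.44-fold, or 0.24 without that array and 0.19 without both arrays numbered 3.

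Cstb, the cytosolic inhibitor stefin B, was at 9.05, 9.02 and 7.81 at 9 days, then 8.82, 9.17 and 8.14 at 21 days. The arrays numbered 3 were the lowest at both ages, by -1.22 and -0.85 against the mean of the other 2. The ages overlapped, with a difference of 0.085 ± 0.42 (log2, SE), and the SE with the block was 0.13. Stefin A, encoded by Csta, was at 3.84, 3.78 and 3.71 and then at 3.78, 3.92 and 3.78, near the array medians, and differed by 0.050 ± 0.073.

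The cystatins of the male reproductive tract gave low signals. Cst8, which encodes the cystatin known as CRES, was at 2.55, 2.42 and 2.38 at 9 days and 2.37, 2.40 and 2.42 at 21 days. Cst12 was at 2.36, 2.29 and 2.29 and then at 2.11, 2.29 and 2.55. Both overlapped between the ages, with differences of -0.054 ± 0.070 and 0.0029 ± 0.12 (log2, SE), and the sign for Cst12 turned after quantile normalization (-0.017). Cst5 was at 2.58, 2.49 and 2.51 and then at 2.51, 2.92 and 2.48, and Cst6, a secreted cystatin that also inhibits legumain, at 3.57, 3.19 and 3.27 and then at 3.57, 3.42 and 3.36. Their differences were 0.11 ± 0.13 and 0.10 ± 0.12. The other 5 cystatins differed by -0.030 to 0.025, below the array medians on all arrays.

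Serpinb2, which encodes the intracellular plasminogen activator inhibitor PAI-2, had the largest difference of the serpins and a wide spread. It was at 3.90, 5.61 and 2.75 at 9 days, then 5.98, 7.07 and 3.49 at 21 days. The ages overlapped, because replicate 2 at 9 days exceeded replicate 3 at 21 days. Within each number the older array was higher, by 2.08, 1.46 and 0.74. Mean signals of 4.08 ± 1.44 and 5.51 ± 1.84 (SD, n = 3 each) gave a fold of 2.69 and a log2 difference of 1.43 ± 1.12 (SE). With the block the SE of Serpinb2 was 0.26. Its unadjusted p was 0.249 in limma without the block and 0.00285 with it, and the adjusted p with the block was 0.390. Leaving out 1 array gave 0.65 (without 21-day-old replicate 2) to 2.44 (without 21-day-old replicate 3).

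Serpinb1a, whose product inhibits neutrophil serine proteases, was lower in the older cultures. It was at 6.66, 6.63 and 7.23 at 9 days, then 6.33, 5.92 and 6.59 at 21 days. The ages did not overlap, though by a narrow gap, and the older array was lower in each pair, by -0.32, -0.71 and -0.64. The fold was 0.679, with a log2 difference of -0.56 ± 0.24 (SE). The unadjusted p was 0.0570 in limma and 0.00300 with the block, where the adjusted p was 0.390. Without 9-day-old replicate 3 the difference was -0.36.

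Serpine2 encodes protease nexin-1, a secreted inhibitor of thrombin and plasminogen activators. It was at 7.74, 7.55 and 7.34 at 9 days, then 6.99, 7.56 and 6.11 at 21 days. The arrays numbered 2 were alike at both ages, whereas the older array was lower by -0.74 and -1.23 in the pairs numbered 1 and 3. The difference was -0.65 ± 0.37 (log2, SE), or -0.27 without 21-day-old replicate 3. In limma with the block the SE was 0.24, with an unadjusted p of 0.0432 and an adjusted p of 0.633.

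Serpina3n, a secreted inhibitor of the antichymotrypsin group and a gene of the acute phase, was at 3.05, 3.83 and 3.27 at 9 days and at 3.18, 5.01 and 3.49 at 21 days. Replicate 2 was highest at both ages, and most of the difference lay there. The ages overlapped, with a difference of 0.51 ± 0.51 (log2, SE) that was -0.049 without 21-day-old replicate 2. Serpinb6b, an intracellular serpin, was at 4.38, 3.91 and 5.02 and then at 4.24, 3.55 and 4.87. It was lower in each pair by -0.14, -0.35 and -0.16, a small shift beside the spread of more than 1 unit between numbers. The difference was -0.22 ± 0.42 without the block. In limma with the block the SE was 0.079, with an unadjusted p of 0.0427 and an adjusted p of 0.633.

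The other serpins with high signal did not part the ages. Serpinf1, which encodes the secreted antiangiogenic factor PEDF, was at 10.28, 10.30 and 10.68 at 9 days and 10.20, 10.45 and 10.33 at 21 days. Serping1, which encodes the inhibitor of the complement protease C1, was at 6.20, 7.10 and 6.45 and then at 6.29, 6.82 and 6.25. Their differences were -0.098 ± 0.13 and -0.13 ± 0.27 (log2, SE), and both turned when a single 9-day-old array was left out (0.033 without replicate 3 for Serpinf1, 0.13 without replicate 2 for Serping1). Serpinb9, an inhibitor of granzyme B, and Serpinb6a differed by -0.15 ± 0.43 and 0.13 ± 0.30, and both turned when 1 array was left out (-0.42 to 0.29 and -0.15 to 0.41).

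Most serpins lay at the low end, with 26 of 35 below the array medians on every array. Serpina5, the protein C inhibitor known from the male tract, was at 2.10 on 5 arrays and at 2.21 on 21-day-old replicate 3. Serpinb12 was at 2.30, 2.39 and 2.39 and then at 2.29, 2.93 and 2.32, with a difference of 0.16 ± 0.18 (log2, SE) carried by 1 array. Serpini2 parted the ages without overlap, but by a narrow gap (2.10 on 21-day-old replicate 1 against 2.08 on 9-day-old replicate 2). Its difference was only 0.10 ± 0.071, below the array medians. Clade A had 13 measured serpins, 8 higher and 5 lower (median 0.0095), and clade B had 14, with 8 higher and 6 lower (median 0.055).

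Arrays of different numbers lay far apart for many members. The mean square between numbers exceeded that between ages for 46 of the 65 genes, or 70.8%, beside 67.2% of all genes, so the share lay near that of the array. Serpinb2 and Ctsc were lower in the arrays numbered 3 than in the mean of the other 2 by -2.01 and -1.25 at 9 days and by -3.04 and -2.06 at 21 days. Serpinb6b and Serpinb9 were higher there, by 0.88 and 0.75 at 9 days and by 0.97 and 0.81 at 21 days. These arrays also carried the higher smooth muscle markers given above, whose part was not tested. Testin was high in array 3 at 21 days (2.78) and not at 9 days (0.083), and Cst3 and Ctsl were low in array 3 at 9 days (-0.87 and -0.72) and not at 21 days (0.15 and -0.029).

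**Figure D4:**
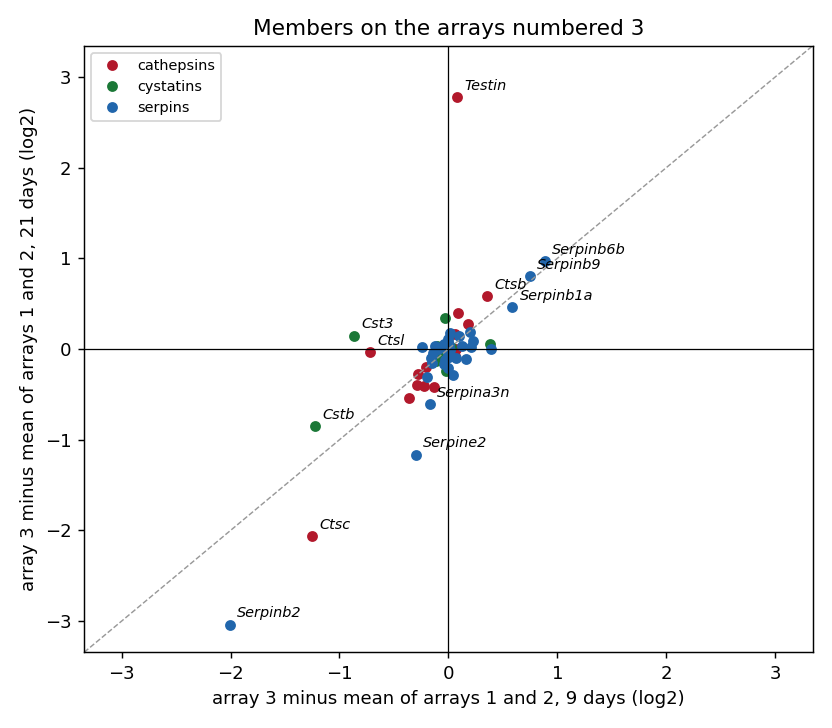
Log2 signal on the array numbered 3 minus the mean of arrays 1 and 2 of the same age, at 9 days (horizontal) and 21 days (vertical), for the 65 genes, with the line of equality dashed. Serpinb2, Ctsc and Cstb lie low at both ages and Serpinb6b and Serpinb9 high at both, while Testin lies high at 21 days only.

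Most members sit in gene clusters, and Testin and Serpinb2 lay beside genes of low signal that differed little. In the RefSeq promoter table of assembly GRCr8, 52 of the 65 were matched by gene number. Of these, 36 lay in 8 groups whose neighbouring starts were at most 1 Mb apart. Members without a match were not placed, so the groups may be incomplete. Testin lies on chromosome 17 in 1 such group with the placental cathepsin genes Ctsm, Ctsr and Ctsj, which differed by -0.12, 0.063 and -0.023, all below the array medians. Serpinb2 lies on chromosome 13 in a group with 6 other matched clade B genes. Serpinb10, the nearest of these, was at 2.22 and 2.29 at the 2 ages (mean log2). Ctsk and Ctss lie 27.8 kb apart on chromosome 2, and their differences were 0.34 and -0.016. Cst3 shares a group on chromosome 3 with Cstl1, Cst12, Cst8 and Cst13, which differed by -0.054 to 0.0029. On chromosome 17 Serpinb1a (-0.56) shares a group with Serpinb6a (0.13), Serpinb9d (0.075), Serpinb9 (-0.15) and Serpinb6b (-0.22).

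The sequences before the starts of Testin, Ctsh, Serpinb2 and Serpinb1a are shown because these had no overlap and a difference of at least 0.3, or, for Serpinb2, the second-largest difference, and that of Ctsl because it is the relative of Testin. Each holds the 250 bases before the annotated start, from RefSeq in build GRCr8, 5′ to 3′ on the gene's strand. Capitals mark matches on either strand to 6 motifs, none of which contains another: the TATA box TATAAA, the CCAAT box CCAAT, the GC box GGGCGG, the E-box CACGTG (the core of the element bound by the lysosomal regulator TFEB), the AP-1 site TGANTCA and the GATA site AGATAA.
Testin, chr17:3852259-3852508, plus strand: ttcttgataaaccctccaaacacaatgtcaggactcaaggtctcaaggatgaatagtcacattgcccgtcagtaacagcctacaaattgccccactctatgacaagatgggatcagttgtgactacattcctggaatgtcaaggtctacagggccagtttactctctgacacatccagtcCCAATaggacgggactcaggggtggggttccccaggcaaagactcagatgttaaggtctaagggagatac
Ctsl, chr17:769854-770103, plus strand: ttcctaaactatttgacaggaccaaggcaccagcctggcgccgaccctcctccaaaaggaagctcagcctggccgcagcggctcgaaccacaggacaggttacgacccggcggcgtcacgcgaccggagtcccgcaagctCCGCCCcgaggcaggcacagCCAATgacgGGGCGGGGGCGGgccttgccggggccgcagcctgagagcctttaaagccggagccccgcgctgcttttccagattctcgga
Ctsh, chr8:99488506-99488755, plus strand: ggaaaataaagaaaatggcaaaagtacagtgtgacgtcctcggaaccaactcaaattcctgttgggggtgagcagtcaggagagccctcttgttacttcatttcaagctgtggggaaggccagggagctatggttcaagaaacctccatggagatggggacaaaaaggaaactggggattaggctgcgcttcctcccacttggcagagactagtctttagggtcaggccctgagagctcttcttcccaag
Serpinb2, chr13:24055771-24056020, plus strand: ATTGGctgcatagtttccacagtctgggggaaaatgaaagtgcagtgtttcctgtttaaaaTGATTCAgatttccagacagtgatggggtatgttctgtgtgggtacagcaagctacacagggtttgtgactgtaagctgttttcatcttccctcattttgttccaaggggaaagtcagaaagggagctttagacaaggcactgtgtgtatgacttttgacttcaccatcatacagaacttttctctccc
Serpinb1a, chr17:31799196-31799445, plus strand: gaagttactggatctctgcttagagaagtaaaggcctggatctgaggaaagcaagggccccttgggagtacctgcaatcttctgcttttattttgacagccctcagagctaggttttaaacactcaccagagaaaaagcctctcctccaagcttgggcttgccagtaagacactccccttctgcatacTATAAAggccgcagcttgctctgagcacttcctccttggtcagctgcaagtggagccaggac

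The starts of Testin and Ctsl differ in composition. The 250 bases hold 48.0% G and C for Testin and 66.8% for Ctsl, with 3 GC boxes before Ctsl and none before Testin, and both hold a CCAAT box, 70 bases before the start of Testin and 90 before that of Ctsl. Serpinb2 has an AP-1 match 189 bases before its start and a reverse CCAAT box at 250 and Serpinb1a a TATA box at 62 bases. Ctsh has none of the 6. Among all 33465 promoters of this length, 34.0% hold the CCAAT box, 30.5% the GC box, 12.9% the TATA box, 10.3% the GATA site, 6.34% the AP-1 site and 5.59% the E-box. Among the 52 promoters of the families the shares were 38.5%, 13 of 52, 13.5%, 15.4%, 7.69% and 7.69%. The AP-1 matches were those of Serpinb2, Serpinb3, Serpinb5 and Serpinb7, all of them in the group on chromosome 13, and the E-boxes those of Ctsd, Ctsf, Cstb and Serpina1f. A match is a run of letters and was not tested as a binding site.

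Partners of the proteases and inhibitors were taken from a list of 69 genes in 4 groups, of which 66 were measured. In limma 0 of the 66 passed in either direction (0% of all genes), and the ages did not overlap for 7, or 10.6%, beside 5.72% of all genes. Of the 13 genes of lysosomal delivery and processing 8 were higher and 5 lower, with a median difference of 0.042. Lgmn encodes legumain, which processes cathepsins and is inhibited by cystatins, and it was the one gene of this group without overlap. It was at 7.29, 7.38 and 6.74 at 9 days and 7.39, 7.63 and 7.64 at 21 days, with a difference of 0.42 ± 0.19 (log2, SE). The gap between the ages was narrow (7.392 on 21-day-old replicate 1 against 7.380 on 9-day-old replicate 2). The 9-day-old replicate 3 that was low for Ctsl and Cst3 was low for Lgmn too.

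The serine proteases that serpins act on were flat as a group, with 13 of 26 higher and a median of 0.0012. Htra1, a secreted protease of the matrix, was the only one without overlap, at 10.73, 10.57 and 10.58 and then at 10.49, 10.49 and 10.21, a difference of -0.23 ± 0.10 (log2, SE).

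Of 11 receptors and cofactors 5 were higher and 6 lower. Thbd, the thrombin receptor thrombomodulin, was at 2.86, 3.31 and 3.17 and then at 3.81, 3.83 and 3.32, a difference of 0.54 ± 0.19 (log2, SE) at a low level. S100a10, which with annexin A2 binds plasminogen at the cell surface, was at 10.18, 10.04 and 10.21 and then at 9.95, 9.76 and 9.88, a difference of -0.28 ± 0.08. Both parted the ages without overlap, but Thbd only by a narrow gap (3.317 on 21-day-old replicate 3 against 3.307 on 9-day-old replicate 2). Of 16 other protease inhibitors 10 were higher and 6 lower, and 3 had no overlap. Wfdc1, a secreted whey acidic protein domain gene, was at 7.49, 7.24 and 7.79 at 9 days and 8.06, 8.09 and 8.20 at 21 days, with a difference of 0.61 ± 0.15. The plasma gene Hrg (0.17 ± 0.07) and Pi16 (-0.08 ± 0.06) differed less, below the array medians.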

How the data were processed

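Total RNA of 6 samples was measured on Affymetrix whole-transcript arrays. The deposited log2 signals per probe set came from RMA, which the submitters' processing notes name without version or settings. RMA subtracts background, equalizes the arrays by quantiles and sets no zero, so no limit of detection is known.

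Of 29214 probe sets 15310 carry 1 gene symbol in the platform annotation, which gave 14506 genes. The probe set of highest mean was used per gene, a choice that touched only Ctsr among the 65 genes of the families, and 2 probe sets shared by several serpin genes were left out. All 65 Entrez numbers were found in RefSeq GRCr8. Ages were compared with limma 3.58.1 in R 4.3.3 (lmFit, eBayes) as 21 minus 9 days over all genes, with Benjamini-Hochberg adjustment, a threshold of 0.05 and no filter on level. The script was tested on simulated data. Precision is limited by the 3 arrays per age, and the SE of a difference had a median of 0.112 over all genes. Unless the block is named, each SE is from the fit without it and includes the spread between numbers.

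Genes were named with the values of each array if they were among the 6 largest differences of a family, if the ages did not overlap with a difference of at least 0.3, or if they are known from the testis or as main members of their family; this gave 25. Of each partner group the 3 largest without overlap were named. Members, lists and tests were chosen with earlier results of these data known. Same-numbered arrays deviated together from their age means (correlations across genes 0.439, 0.549 and 0.673, each above the limit of 0.1), so the titles' numbers were taken to pair them, and a fit with the number as a block was an alternative. The others were a filter on level, 2 scalings, the mean over probe sets, a trended robust prior, array weights and leaving out arrays.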

Additional observations from a re-analysis of the deposited data

How the results depend on the processing

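All alternatives kept the count of called members, of called partner genes and of called genes over the array at 0. The replicate block changed no call: 0 members passed with the pairing by number, and the genes at an unadjusted p under 0.05 went from 431 to 1122. With the filter on level, 12 of 18 members were higher, 2 had no overlap (11.1%, beside 5.58% of all genes kept), and the median differences were 0.108 for members, 0.203 for cathepsins, 0.307 for cystatins and -0.128 for serpins, since the low members were gone. Leaving out 1 array left 5 to 10 members without overlap (7.69% to 15.4%, beside 12.2% to 16.4% of all genes), since fewer arrays overlap less. Without both arrays numbered 3 there were 10 (15.4%, beside 24.5% of all genes). The cathepsin median then ran from 0.053 (without 21-day-old replicate 3) to 0.163 (without 21-day-old replicate 1), and was 0.036 without both arrays numbered 3.

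Of the 25 named members 11 kept their sign under each alternative that holds them (Testin, Cst6, Cst8 and Csta lie below the filter on level), and Serpina5 went to 0 without 21-day-old replicate 3. Of those that kept it, Testin was between 1.35 and 2.81, Ctsh between 0.42 and 0.69, Cst3 between 0.19 and 0.71, Serpinb2 between 0.65 and 2.44, Serpinb1a between -0.71 and -0.36 and Serpine2 between -0.99 and -0.27. Cst12 turned after quantile normalization (-0.017), median centring (-0.022), array weights (-0.061) and without both arrays numbered 3 (-0.12), where Cstb (-0.039), Ctsb (-0.0021), Ctsd (0.022) and Serpinf1 (0.032) turned too. Leaving out 1 array turned 13 members, with ranges of -0.12 to 0.23 for Ctsb, -0.11 to 0.11 for Cst12, -0.17 to 0.14 for Ctsd, -0.32 to 0.13 for Serping1, -0.32 to 0.37 for Cstb, -0.0072 to 0.36 for Ctsl, -0.54 to 0.12 for Serpinb6b, -0.17 to 0.033 for Serpinf1, -0.067 to 0.030 for Ctss, -0.031 to 0.19 for Cst5, -0.091 to 1.16 for Ctsc, -0.049 to 0.87 for Serpina3n and -0.053 to 0.27 for Serpinb12. The cause was not tested.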

Other observations

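Relatives outside the symbol rule also overlapped between the ages. Serpinh1, the collagen chaperone of the endoplasmic reticulum, was at 9.92, 9.99 and 10.42 at 9 days and 9.91, 9.93 and 10.02 at 21 days, a difference of -0.16 ± 0.14 (log2, SE). The placental cathepsin genes Cts7 and Cts8 differed by 0.11 ± 0.08 and -0.015 ± 0.08. A probe set shared by Ctsql1 and Ctsql2 was at 2.20, 2.53 and 2.19 and then at 2.18, 2.24 and 2.22.

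Many members carry exactly the same deposited value on several arrays. At least 2 of the 6 arrays were equal for 30 of the 65 genes, or 46.2%, beside 37.8% of all 14506 genes. Of the 16 members above the array medians 2 had equal values, and of the 49 others 28. Serpina5 had 1 value on 5 arrays, and Ctsj had 1 value on 5 arrays too.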
